A study of Saccharomyces cerevisiae with 6 samples.

Results

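The genes for the subunits of RNA polymerases I, II and III were compared between xylose-fermenting *Saccharomyces cerevisiae* strains without and with *PHO13*. The 31 genes were chosen by name, as the known subunits of the 3 enzymes, out of 6256 genes with a probe on the array. Of them, 7 encode subunits found in RNA polymerase I (Pol I) only, 7 in Pol II only and 10 in Pol III only, 2 are shared by Pol I and Pol III, and 5 are shared by all 3 enzymes. The PHO13 deleted strain is YΔGP/XK/XI, in which *PHO13* was disrupted with the KanMX marker, and the control strain is YΔG/XK/XI, from which it was made. Both derive from the haploid laboratory strain YPH499 (MATa ade2 his3 leu2 lys2 trp1 ura3), and in both the aldose reductase gene *GRE3* was deleted, the xylulokinase gene *XKS1* was overexpressed from the *TDH3* promoter, and the xylose isomerase gene *xylA* of *Orpinomyces* sp., driven by the *PGK1* promoter, was integrated in several copies at δ sequences. Cells were taken after 9 h in YP medium with 50 g/L xylose under oxygen limitation, and total RNA was hybridized to 1 single-colour array per sample, with 3 samples of each strain. Each strain is a single constructed line, and the labels number the samples as runs without saying that the RNA came from separate cultures, so the p-values measure the spread between these samples.

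RNA polymerase I transcribes the precursor of the large ribosomal RNAs, Pol II transcribes messenger RNAs, and Pol III transcribes transfer RNAs and the smallest ribosomal RNA. All are built on the same plan, with a pair of large catalytic subunits, an assembly platform, a stalk that binds the emerging RNA, and a set of small common subunits. Pol I and Pol III carry in addition, as permanent subunits, relatives of general transcription factors that Pol II recruits only for a time. In yeast the synthesis of ribosomal and transfer RNA is closely tied to growth, and the genes of Pol I and Pol III belong to the large group of genes needed to build ribosomes.

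Signals are given as log2 intensity relative to the 75th percentile of each array, and changes as the log2 fold change of YΔGP/XK/XI over YΔG/XK/XI with its standard error (SE). The strain labels were checked first. The *PHO13* probe was well above background on 0 of 3 YΔGP/XK/XI arrays and on 3 of 3 YΔG/XK/XI arrays, a signal at least 82.4-fold lower in YΔGP/XK/XI when the dimmest signals well above background were taken as the limit. The *GRE3* probe passed this mark on 0 of the 6 arrays, and the *XKS1* probe on all 6. The *XKS1* signal was lower in YΔGP/XK/XI, with a change of -0.45 (SE 0.10, adjusted p = 0.0112 in limma) and no overlap of the arrays. All 31 subunit probes were well above background on all 6 arrays. Arrays of the same strain correlated with r of 0.995 to 0.998, and arrays of different strains with r of 0.984 to 0.988. Replicates 1 and 2 of both strains were on slide 1 and replicate 3 of both on slide 2, and the slide 2 arrays were the dimmest of each strain, with a 75th percentile of 3782 intensity units for YΔGP/XK/XI and 4631 for YΔG/XK/XI. Genes were called with limma at an adjusted p under 0.05. In a bulk RNA sample, a change in the share of cells of a kind cannot be told apart from a change in RNA per cell.

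Of the 31 subunit genes, 13 rose in YΔGP/XK/XI, which is 41.9% of them, and none fell. Over the whole array, 16.5% of the 6256 genes were called higher and 13.1% lower, 29.6% in all. At an unadjusted p under 0.05, limma gave 17 subunit genes higher and 0 lower, where 1420 of the 6256 genes were higher and 1216 lower. The median change of the subunit genes was 0.23, a 1.17-fold higher signal, against a median of 0.01 over all genes. The 3 YΔGP/XK/XI arrays lay above all YΔG/XK/XI arrays for 16 of the 31 genes and below them for 1, where the array as a whole had 25.0% of genes above and 21.5% below. The changes that were called ran from 0.33 for *RPO31* to 0.70 for *RPA12*, a 1.63-fold higher signal, so all were moderate in size.

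**Figure D1:**
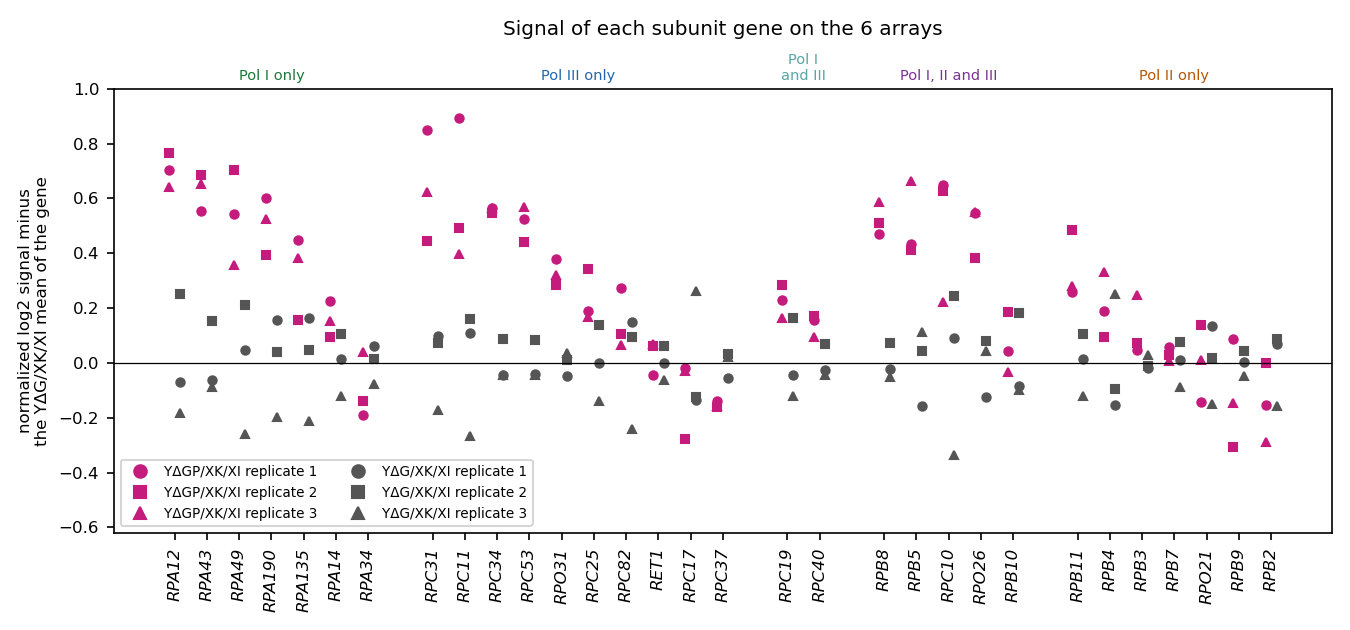
Normalized log2 signal of the 31 subunit genes (horizontal axis, grouped by enzyme) on each array, minus the YΔG/XK/XI mean of the gene (vertical axis, log2 units). Pink marks are the 3 YΔGP/XK/XI arrays and grey marks the 3 YΔG/XK/XI arrays, with circles, squares and triangles for replicates 1, 2 and 3. The pink marks lie above all grey marks for 16 genes and below them for 1, *RPC37*.

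The classes of subunit differed in how many members rose. Among the subunits particular to Pol I, 4 of 7 rose, with a median change of 0.51, and among those particular to Pol III, 5 of 10 rose, with a median of 0.28. Of the 5 subunits common to the 3 enzymes, 3 rose and the median was 0.50. Of the 7 subunits particular to Pol II 1 rose (14.3%, close to the 16.5% of all genes), and their median change was 0.03, which turned to -0.03 when arrays were scaled to their median instead. That scaling also moved the median over all genes, from 0.01 to -0.05. Of the 2 subunits shared by Pol I and Pol III, limma called 0, and 1 passed an unadjusted p under 0.05. Counting each shared subunit in every enzyme that holds it, 7 of 14 Pol I genes, 4 of 12 Pol II genes and 8 of 17 Pol III genes rose. The median over the Pol I subunits, set against the YΔG/XK/XI mean of each gene, was 0.54, 0.39 and 0.38 on the YΔGP/XK/XI arrays in the order of their numbers, against 0.05, 0.11 and -0.18 on the YΔG/XK/XI arrays. For the Pol III subunits it was 0.32, 0.31 and 0.24 on the YΔGP/XK/XI arrays, against -0.02, 0.08 and -0.05 on the YΔG/XK/XI arrays, and again no array of one strain reached those of the other. The Pol II subunits gave 0.06, 0.07 and 0.01 on the YΔGP/XK/XI arrays, within reach of 0.01, 0.04 and -0.09 on the YΔG/XK/XI arrays. These classes share arrays and differ in size, and the difference between classes was not tested as such. Signal level differed too. In Pol I, the 4 genes that rose had YΔG/XK/XI means of -1.95 to -3.78, below the -0.98 to -1.43 of the others. Elsewhere this order did not always hold, as *RPO26* rose with a YΔG/XK/XI mean of 0.08 and *RPC17*, with -4.61, did not.

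**Figure D2:**
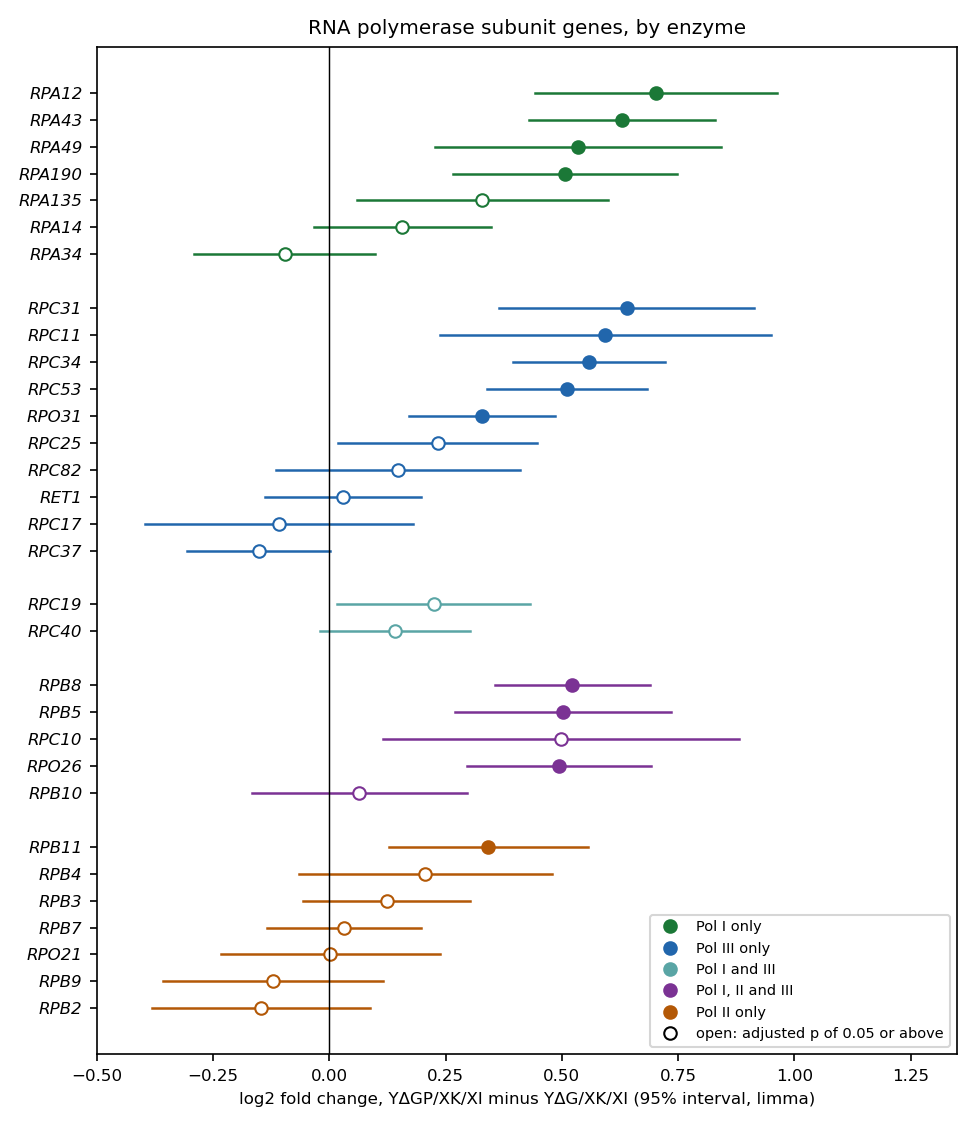
Log2 fold change of each subunit gene in YΔGP/XK/XI over YΔG/XK/XI (horizontal axis) with the 95% interval from limma, ordered within each class. Filled points have an adjusted p under 0.05. Filled points lie to the right of 0 for 13 genes, from 0.33 for *RPO31* to 0.70 for *RPA12*, and 6 of the 7 genes particular to Pol II have open points.

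Within Pol I, the gene with the largest change was *RPA12* (YJR063W), which encodes the zinc ribbon subunit used for cleavage of the nascent RNA. Its signal was -2.82, -2.76 and -2.88 on the YΔGP/XK/XI arrays, against -3.59, -3.27 and -3.71 on the YΔG/XK/XI arrays. The strains did not overlap, and the YΔG/XK/XI arrays were the more spread (SD 0.06 in YΔGP/XK/XI and 0.23 in YΔG/XK/XI, n = 3 each). The change was 0.70 (SE 0.11, adjusted p = 0.00273), which ranked 229 among the 6256 genes. *RPA43* (YOR340C), the large stalk subunit through which Pol I binds its initiation factor Rrn3, stood at -2.53, -2.40 and -2.43 in YΔGP/XK/XI, against -3.15, -2.93 and -3.17 in YΔG/XK/XI. All 3 YΔGP/XK/XI arrays were higher, by 0.63 (SE 0.09, adjusted p = 0.0013). The largest catalytic subunit gene, *RPA190* (YOR341W), read -1.35, -1.56 and -1.43 in YΔGP/XK/XI, against -1.80, -1.92 and -2.15 in YΔG/XK/XI. The groups were again separate, and the change was 0.51 (SE 0.11, adjusted p = 0.00867), a 1.42-fold higher signal.

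The second largest catalytic subunit gene of Pol I, *RPA135* (YPR010C), had -0.98, -1.27 and -1.05 on the YΔGP/XK/XI arrays, against -1.26, -1.38 and -1.64 on the YΔG/XK/XI arrays. Replicate 2 of YΔGP/XK/XI fell just below replicate 1 of YΔG/XK/XI, so the strains overlapped, and the change of 0.33 (SE 0.12) missed the threshold (adjusted p = 0.0679). Without YΔGP/XK/XI replicate 2 it was 0.41 (adjusted p = 0.0354). *RPA49* (YNL248C) and *RPA34* (YJL148W) encode a dimer of Pol I that resembles the Pol II factor TFIIF. *RPA49* read -3.24, -3.08 and -3.43 in YΔGP/XK/XI, against -3.74, -3.57 and -4.04 in YΔG/XK/XI, without overlap. It rose by 0.53 (SE 0.13, adjusted p = 0.0185), but the adjusted p was 0.0528 without YΔGP/XK/XI replicate 1, 0.0513 without YΔG/XK/XI replicate 1 and 0.0587 after quantile normalization. Its partner *RPA34* had -1.47, -1.42 and -1.24 in YΔGP/XK/XI, against -1.22, -1.27 and -1.36 in YΔG/XK/XI, which overlapped, with a difference of -0.10 (SE 0.08, adjusted p = 0.418). The small stalk subunit gene *RPA14* (YDR156W) differed by 0.16 (SE 0.08, adjusted p = 0.186), also with overlapping arrays.

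The smallest adjusted p among all subunit genes belonged to a Pol III gene. *RPC34* (YNR003C), part of a trimer that acts in promoter opening and binds the Pol III initiation factor, read -1.64, -1.66 and -1.64 on the YΔGP/XK/XI arrays, against -2.25, -2.11 and -2.25 on the YΔG/XK/XI arrays. The 3 YΔGP/XK/XI values were nearly identical and all above YΔG/XK/XI, with a change of 0.56 (SE 0.07, adjusted p = 0.000878). A second trimer subunit, *RPC31* (YNL151C), had -2.67, -3.07 and -2.90 in YΔGP/XK/XI, against -3.42, -3.45 and -3.69 in YΔG/XK/XI. These values were more spread but did not overlap, and the change was 0.64 (SE 0.12, adjusted p = 0.00536). The last trimer gene, *RPC82* (YPR190C), differed by 0.15 (SE 0.11, adjusted p = 0.36) with overlapping arrays. The zinc ribbon subunit gene *RPC11* (YDR045C), needed for RNA cleavage and for termination and reinitiation, read -2.44, -2.85 and -2.94 in YΔGP/XK/XI, against -3.23, -3.18 and -3.60 in YΔG/XK/XI. The strains were separate, and the change of 0.59 (SE 0.15, adjusted p = 0.0216) was the least precise of those called. Without YΔGP/XK/XI replicate 1, its brightest array, the change was 0.44 (adjusted p = 0.057), and without YΔG/XK/XI replicate 3 it was 0.46 (adjusted p = 0.0581).

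The largest Pol III subunit gene, *RPO31* (YOR116C), read -1.97, -2.06 and -2.02 in YΔGP/XK/XI, against -2.39, -2.33 and -2.31 in YΔG/XK/XI. The replicates were tight and separate, with a change of 0.33 (SE 0.07, adjusted p = 0.00896). For the second largest, *RET1* (YOR207C), the values -0.63, -0.52 and -0.52 in YΔGP/XK/XI overlapped with -0.59, -0.52 and -0.65 in YΔG/XK/XI, and the 95% interval of the difference was -0.14 to 0.20. *RPC53* (YDL150W) and *RPC37* (YKR025W) encode the TFIIF-like dimer of Pol III, which takes part in termination. *RPC53* read -4.30, -4.38 and -4.26 in YΔGP/XK/XI, against -4.86, -4.74 and -4.87 in YΔG/XK/XI, without overlap, and rose by 0.51 (SE 0.08, adjusted p = 0.00174). *RPC37* was the only subunit gene whose YΔGP/XK/XI arrays all lay below, at -1.92, -1.94 and -1.94, against -1.84, -1.75 and -1.76 in YΔG/XK/XI. The difference of -0.15 (SE 0.07) missed the threshold (adjusted p = 0.122, unadjusted p = 0.0516 in limma). It was called lower after quantile normalization (-0.24, adjusted p = 0.0255) and after scaling to the median (-0.21, adjusted p = 0.0438). The stalk genes were not called, with 0.23 (SE 0.09, adjusted p = 0.0946) for *RPC25* (YKL144C), whose arrays did not overlap, and -0.11 (SE 0.13, adjusted p = 0.543) for *RPC17* (YJL011C), whose arrays did. With the slide as a block, *RPC25* had an adjusted p of 0.0482.

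The subunits common to the 3 enzymes split into 3 genes that rose and 2 that were not called. *RPB8* (YOR224C) read -0.56, -0.52 and -0.45 in YΔGP/XK/XI, against -1.05, -0.96 and -1.08 in YΔG/XK/XI. The arrays of each strain lay close together and far from the other strain, and the change was 0.52 (SE 0.07, adjusted p = 0.00134). *RPO26* (YPR187W), the common subunit also named RPB6, had 0.63, 0.47 and 0.63 in YΔGP/XK/XI, against -0.04, 0.16 and 0.12 in YΔG/XK/XI. These did not overlap, and the change was 0.49 (SE 0.09, adjusted p = 0.00395). *RPB5* (YBR154C), which forms part of the jaw that holds the incoming DNA, had -2.46, -2.48 and -2.23 in YΔGP/XK/XI, against -3.04, -2.85 and -2.78 in YΔG/XK/XI. Again all YΔGP/XK/XI arrays were higher, by 0.50 (SE 0.10, adjusted p = 0.00768).

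The other common subunits, *RPC10* and *RPB10*, are small zinc-binding proteins. *RPC10* (YHR143W-A) read -2.45, -2.47 and -2.87 in YΔGP/XK/XI, against -3.00, -2.85 and -3.43 in YΔG/XK/XI. Replicate 3, on slide 2, was the lowest array of both strains, and YΔGP/XK/XI replicate 3 fell below YΔG/XK/XI replicate 2, so the strains overlapped. The change of 0.50 was the same in size as for *RPB5* but less precise (SE 0.17, adjusted p = 0.0549). It was 0.47 within slide 1 and 0.56 within slide 2, and a fit that blocked on slide gave an adjusted p of 0.00168. Without YΔGP/XK/XI replicate 3 the change was 0.64 (adjusted p = 0.027), and without YΔG/XK/XI replicate 2 it was 0.62 (adjusted p = 0.0401). *RPB10* (YOR210W) differed by 0.06 (SE 0.10, 95% interval -0.17 to 0.30), with overlapping arrays.

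The assembly platform genes shared by Pol I and Pol III were not called. *RPC40* (YPR110C) read -1.97, -1.96 and -2.03 in YΔGP/XK/XI, against -2.15, -2.06 and -2.17 in YΔG/XK/XI. The arrays did not overlap, but the difference was only 0.14 (SE 0.07, adjusted p = 0.164). *RPC19* (YNL113W) had -0.50, -0.44 and -0.57 in YΔGP/XK/XI, against -0.77, -0.56 and -0.85 in YΔG/XK/XI. YΔG/XK/XI replicate 2 fell among the YΔGP/XK/XI arrays, and the difference was 0.22 (SE 0.09, adjusted p = 0.0969). Without that array the difference was 0.31 (adjusted p = 0.0401).

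Of the genes particular to Pol II, only *RPB11* (YOL005C) rose. It encodes the small subunit of the Pol II assembly platform and read 0.68, 0.91 and 0.70 in YΔGP/XK/XI, against 0.44, 0.53 and 0.30 in YΔG/XK/XI. The arrays were separate, with a change of 0.34 (SE 0.09, adjusted p = 0.0255). The adjusted p was 0.062 without YΔGP/XK/XI replicate 2, 0.0739 without YΔG/XK/XI replicate 1 and 0.0683 without YΔG/XK/XI replicate 3. For *RPO21* (YDL140C), the largest subunit with the C-terminal repeat domain, the values 1.22, 1.50 and 1.37 in YΔGP/XK/XI lay among 1.50, 1.38 and 1.21 in YΔG/XK/XI. The difference was 0.00 (SE 0.10), with a 95% interval of -0.23 to 0.24. *RPB2* (YOR151C), the second largest subunit, read 0.19, 0.34 and 0.06 in YΔGP/XK/XI, against 0.41, 0.43 and 0.19 in YΔG/XK/XI, which overlapped (difference -0.15, SE 0.10, adjusted p = 0.306).

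The remaining Pol II genes gave differences of -0.12 to 0.21. The zinc ribbon subunit gene *RPB9* (YGL070C) had -1.89, -2.29 and -2.12 in YΔGP/XK/XI, against -1.98, -1.94 and -2.03 in YΔG/XK/XI, with overlap (difference -0.12, SE 0.10, adjusted p = 0.401). The stalk is formed by *RPB7* (YDR404C), with a difference of 0.03 (SE 0.07, adjusted p = 0.776), and *RPB4* (YJL140W), with 0.21 (SE 0.12, adjusted p = 0.221). Both overlapped, and *RPB4* was 0.33 (adjusted p = 0.0384) without YΔG/XK/XI replicate 3, its highest YΔG/XK/XI array. The assembly platform gene *RPB3* (YIL021W) had all YΔGP/XK/XI arrays above, by 0.12 (SE 0.08, adjusted p = 0.265).

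Subunits that hold matching places in the 3 enzymes were then compared on the same array, as the difference of their log2 signals. The difference shows whether the strains changed the genes unequally. It is not altered by a single scaling factor per array, but quantile normalization can alter it. After quantile normalization *RPC40* changed by 0.05 and *RPB3* by 0.12, so the small gap of that pair reversed. The comparison was made for 17 pairs in 7 places. With 3 arrays of each strain, the exact two-sided permutation test cannot go below p = 0.1, so no pair could pass 0.05, and the pairs share genes. Of the 12 pairs that set a Pol I or Pol III gene against its Pol II counterpart, 9 had the larger change in the Pol I or Pol III gene, and 7 of the 12 had strains that did not overlap, 6 of them with the larger change in the Pol I or Pol III gene and 1, *RPC17* against *RPB4*, the other way. In all 12 pairs the Pol I or Pol III gene also had the lower mean signal in YΔG/XK/XI. The difference ran from -0.93 for *RET1* minus *RPB2* to -4.75 for *RPC17* minus *RPB4*. Enzyme and signal level therefore cannot be told apart in these pairs. Of single genes on the array, 25.0% had strains apart with YΔGP/XK/XI above and 21.5% with it below, and the share over other pairs of genes was not computed. The widest gap was at the zinc ribbon subunit, where the change of *RPA12* exceeded that of *RPB9* by 0.83 and the change of *RPC11* exceeded it by 0.72, neither with overlap (exact permutation p = 0.1 each). The change of *RPA12* exceeded that of *RPC11* by only 0.11, with overlap (exact permutation p = 0.6).

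At the largest subunit, *RPA190* minus *RPO21* was -2.58, -3.07 and -2.80 on the YΔGP/XK/XI arrays, against -3.30, -3.30 and -3.36 on the YΔG/XK/XI arrays. The strains were separate, and the gap between the changes was 0.50 (exact permutation p = 0.1). For *RPO31* against *RPO21* the gap was 0.33, with overlap (exact permutation p = 0.2). At the second largest subunit, *RPA135* exceeded *RPB2* by 0.48 without overlap (exact permutation p = 0.1), while *RET1* exceeded *RPB2* by 0.18 with overlap (exact permutation p = 0.2). The large stalk gene was the place where all 3 enzymes separated: *RPA43* exceeded *RPB7* by 0.60, *RPC25* exceeded *RPB7* by 0.20 and *RPA43* exceeded *RPC25* by 0.40, none with overlap (exact permutation p = 0.1 each). The small stalk gene ran otherwise, with a gap of -0.31 for *RPC17* against *RPB4*, lower in YΔGP/XK/XI without overlap (exact permutation p = 0.1) and *RPA14* against *RPB4* at -0.05 (exact permutation p = 0.9). In the assembly platform the shared Pol I and Pol III genes moved little apart from those of Pol II, with 0.02 for *RPC40* against *RPB3* (exact permutation p = 0.8) and -0.12 for *RPC19* against *RPB11* (exact permutation p = 0.2).

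**Figure D3:**
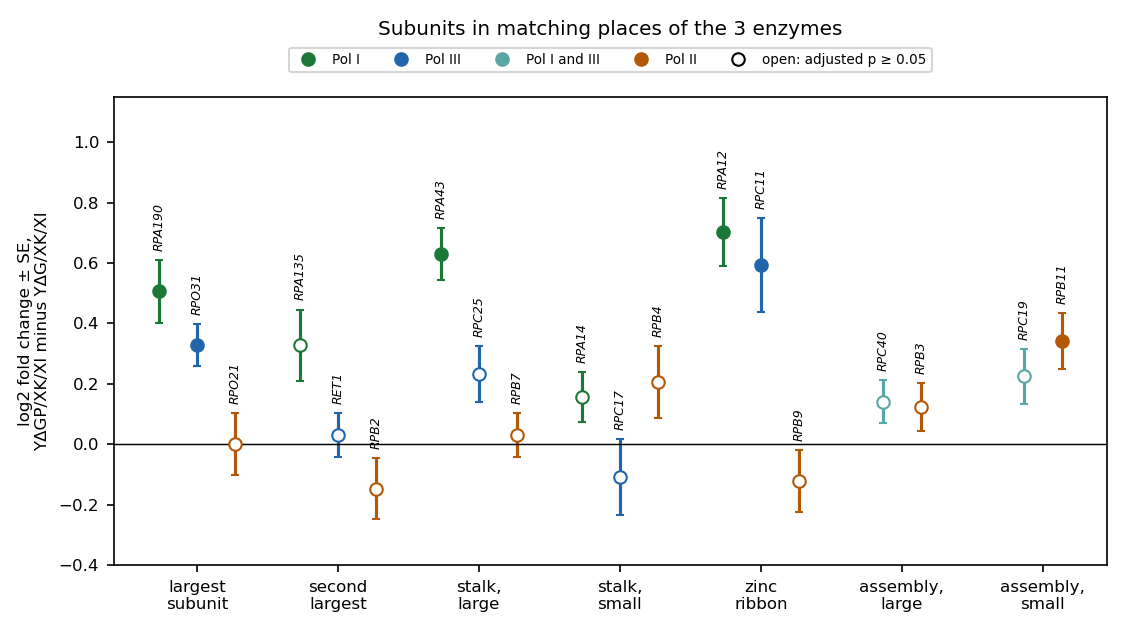
Log2 fold change in YΔGP/XK/XI over YΔG/XK/XI (vertical axis, bars show SE from limma) for subunits that hold matching places in the 3 enzymes (horizontal axis), coloured by enzyme. Filled points have an adjusted p under 0.05. The Pol I gene lies highest and the Pol II gene lowest for the largest subunit, the second largest, the large stalk subunit and the zinc ribbon subunit, but not for the small stalk subunit, and the assembly platform holds no subunit particular to Pol I.

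The genes of subunits that bind each other as a dimer were compared in the same way. This comparison was chosen after the values were seen and covered 7 dimers, of which 3 had strains that did not overlap, a share near that of single genes on the array (25.0% above and 21.5% below). *RPA49* minus *RPA34* was -1.77, -1.66 and -2.19 on the YΔGP/XK/XI arrays, against -2.52, -2.31 and -2.69 on the YΔG/XK/XI arrays, a gap of 0.63 between the changes (exact permutation p = 0.1). In the equivalent dimer of Pol III, *RPC53* minus *RPC37* was -2.38, -2.44 and -2.32 on the YΔGP/XK/XI arrays, against -3.03, -2.99 and -3.11 on the YΔG/XK/XI arrays, a gap of 0.66 (exact permutation p = 0.1). So in both enzymes the larger member of the TFIIF-like dimer rose and the smaller one was not called. For *RPA34* the direction was not steady, with a difference of -0.20 on slide 1 and 0.11 on slide 2. The Pol I stalk genes *RPA43* and *RPA14* were also apart, by 0.47 (exact permutation p = 0.1). In these 3 dimers the gene that rose was also the dimmer one in YΔG/XK/XI. Its mean difference from its partner there was -2.50 for *RPA49*, -3.04 for *RPC53* and -2.11 for *RPA43*. The other 4 dimers overlapped, with gaps of -0.22 to 0.34.

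In the gene order of the R64 assembly, *RPA43* and *RPA190* are neighbours transcribed away from each other, so that a single intergenic stretch lies upstream of both, and both rose. *RPO26* has the same arrangement with *PZF1*, the gene of the Pol III factor TFIIIA. *RPO26* rose by 0.49, whereas *PZF1* differed by -0.25 (SE 0.11, adjusted p = 0.13). Within slides, the 13 genes that rose had changes of 0.31 to 0.64 on slide 1 and 0.28 to 0.82 on slide 2. For these genes all YΔGP/XK/XI arrays lay above all YΔG/XK/XI arrays, so the sign within each slide was already given. With the slide as a block, 15 subunit genes were called higher, among them all 13. Over the array, 1275 genes were called higher with this block, against 1033 without it.

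The factors that work with the polymerases were counted in 8 lists with 87 genes in all. Of these, 10 rose (11.5%) and 15 fell (17.2%), not far from the 16.5% and 13.1% of all genes, and the median change was 0.04. The lists are small, and several of the shares below are near those of the whole array. Of the 8 initiation factors of Pol I, 4 rose and 1 fell. *RRN11* (0.60, SE 0.10, adjusted p = 0.00308) and *RRN7* (0.51, SE 0.08, adjusted p = 0.00305), both of the core factor, rose, as did *UAF30* (0.43, SE 0.07, adjusted p = 0.00364) of the upstream activating factor. *RRN10*, of the same upstream factor, fell by 0.73 (SE 0.09, adjusted p = 0.000748), and by 0.42 with normexp background correction (adjusted p = 0.0236). Of the 9 initiation factors of Pol III, 2 rose (22.2%, against 16.5% of all genes) and limma called 0 lower, also at an unadjusted p under 0.05. These were *TFC4* (0.50, SE 0.10, adjusted p = 0.00867) and *TFC8* (0.27, SE 0.07, adjusted p = 0.0263), both of TFIIIC, which binds the internal promoter of transfer RNA genes. The TATA-binding protein gene *SPT15*, whose product serves all 3 enzymes, fell by 0.31 (SE 0.09, adjusted p = 0.0387). The call of *SPT15* ended without YΔGP/XK/XI replicate 1 (adjusted p = 0.0632) or 3 (adjusted p = 0.111) and without YΔG/XK/XI replicate 1 (adjusted p = 0.126) or 2 (adjusted p = 0.108). That of *TFC8* ended without YΔGP/XK/XI replicate 1 (adjusted p = 0.0961), without YΔG/XK/XI replicate 1 (adjusted p = 0.0928) or 2 (adjusted p = 0.0725), and under quantile or median scaling (adjusted p = 0.0996 and 0.0575).

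Of the 16 general transcription factor genes of Pol II, 1 rose (6.25%, against 16.5% of all genes) and 2 fell. The 12.5% that fell is close to the 13.1% of all genes. *SUA7*, which encodes TFIIB, fell by 0.49 (SE 0.07, adjusted p = 0.00157), and *TFA2*, of TFIIE, fell by 0.42 (SE 0.09, adjusted p = 0.0127). Mediator, the complex that links activators to Pol II, had 7 of 25 genes lower, which is 28% against 13.1% of all genes, and 1 higher. *MED6* fell by 0.54 (SE 0.07, adjusted p = 0.00124), *ROX3* by 0.53 (SE 0.08, adjusted p = 0.00226) and *CSE2* by 0.50 (SE 0.07, adjusted p = 0.00164), yet the median Mediator change was 0.03. Of 10 elongation factor genes, *ELF1* rose by 0.46 (SE 0.07, adjusted p = 0.00173) and 1 fell. That is 10% in each direction, against 16.5% and 13.1% of all genes. Of 8 genes for assembly and nuclear import of the polymerases, *RTP1* rose (12.5%) by 0.33 (SE 0.08, adjusted p = 0.0177). In the same list 2 fell (25%), among them *RBA50* by 0.46 (SE 0.08, adjusted p = 0.00323).

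Several of these calls were close to the threshold. The calls of *TAF14* (0.21, adjusted p = 0.0397), of TFIIF, and *RGR1* (0.26, adjusted p = 0.0463), of Mediator, ended whichever array was left out, with adjusted p of 0.0762 to 0.112 and 0.0549 to 0.106. The elongation factor gene *DST1*, which encodes TFIIS, fell by 0.22 (adjusted p = 0.0357), and its call ended without any array but YΔG/XK/XI replicate 3, with the adjusted p reaching 0.115. *RTR1*, a Pol II phosphatase gene, fell by 0.44 (adjusted p = 0.0357), with -0.29 without YΔGP/XK/XI replicate 2 and adjusted p of 0.0854, 0.0578 and 0.099 without YΔG/XK/XI replicates 1, 2 and 3. With normexp correction *RTR1* was also at -0.29 (adjusted p = 0.118). *RTP1* had adjusted p of 0.0555 without YΔGP/XK/XI replicate 1 and 0.0704 without YΔG/XK/XI replicate 1.

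**Figure D4:**
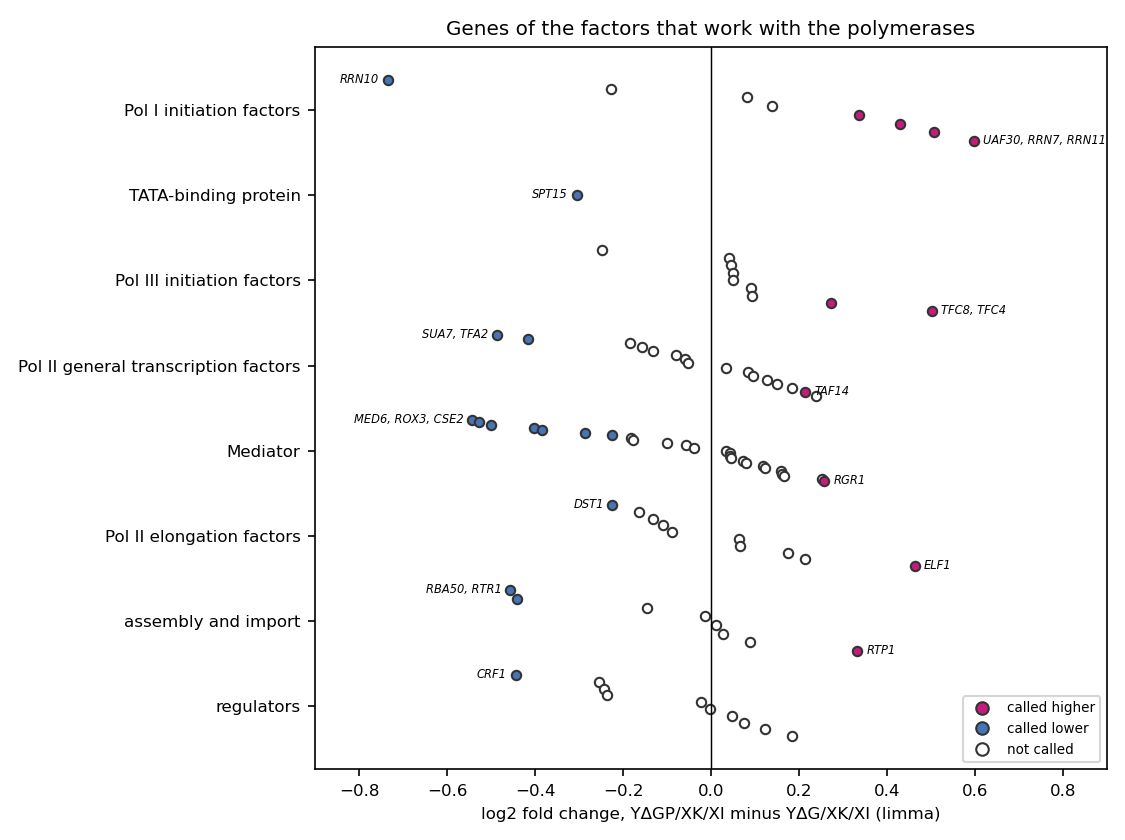
Log2 fold change in YΔGP/XK/XI over YΔG/XK/XI (horizontal axis) of the 87 genes for factors that work with the polymerases, by list (vertical axis, points spread for legibility). Pink points were called higher (10 genes) and blue points lower (15 genes) at an adjusted p under 0.05 in limma, and names run in order of the change. The 4 higher Pol I factors lie to the right and *RRN10* far to the left, and Mediator holds 7 of the 15 lower genes.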

How the data were processed

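The authors deposited the Agilent Feature Extraction 10.1.1.1 output of each of the 6 arrays, in which each spot has a background-subtracted intensity, not scaled between arrays. They also deposited a log2 table, which correlated with the intensities at r of 0.9999 or above and corresponds to values scaled to the 75th percentile and centred per probe. This scale was inferred, and the table served as an alternative. Of 45209 spots per array, 43792 measured 6256 genes with 1 probe and 7 spots each. Outlier spots (304 to 466 per array) were left out, log2 intensities were averaged over spots, and each array was set relative to its 75th percentile. A probe counted as well above background with at least 4 such spots, and no spot was saturated. On an array, 94.3 to 96.3% of probes passed in YΔGP/XK/XI and 96.5 to 97.0% in YΔG/XK/XI. The number of arrays limits the precision, and the median SE was 0.0878.

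The comparison of the strains used lmFit and eBayes of limma 3.58.1 (R 4.3.3), with Benjamini-Hochberg adjustment over all 6256 genes and a threshold of 0.05. The procedure was tested on simulated data with independent noise, no slide effect and far fewer changed genes than were called here. That test does not cover these features of the real arrays. The subunits and the factor lists were chosen with earlier results of these data known. The text names all subunits and, in each factor list, up to 3 called genes in each direction with the largest change. *PZF1* was named after its values were seen. Normexp correction (offset 50) used median raw signals. The alternatives were another background correction, quantile and median scaling, a filter on dim probes, other handling of spots, an intensity trend, the replicate number or slide as a block, the deposited table, and leaving out each array. Names and gene order came from the R64 assembly, in which 5756 systematic names were found. The build behind the probes is not given in the sources used here. Promoter sequences were not used here.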

Additional observations from a re-analysis of the deposited data

How the results depend on the processing

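Of the 13 subunit genes called, 12 were called under all 10 processing alternatives and 10 also without each array in turn. Of the 18 not called, 6 gained a call under at least 1 alternative. No called gene changed direction under these alternatives. The subunit genes called higher numbered 12 to 17 over the processing alternatives and 11 to 15 over the left-out arrays. Subunit genes called lower numbered 1 under quantile normalization and 1 under median scaling (*RPC37* in both), against 0 otherwise. Quantile normalization gave a median of 0.41 for the common subunits and 0.20 for the Pol III subunits, and median scaling gave 0.22 for the Pol III subunits and -0.027 for the Pol II subunits. Over the left-out arrays the medians ranged from 0.41 to 0.56 for Pol I, 0.14 to 0.24 for Pol I and III, -0.01 to 0.07 for Pol II, 0.43 to 0.53 for the common subunits and 0.25 to 0.32 for Pol III. The genes called over the array numbered 1852 (1033 higher, 819 lower), with 846 higher and 1126 lower under median scaling and 910 higher and 991 lower under quantile normalization, and 1178 to 1661 over the left-out arrays, the lowest without YΔG/XK/XI replicate 1. The factor genes called higher numbered 5 to 9 over the left-out arrays, 5 without YΔGP/XK/XI replicate 1 and 5 without YΔG/XK/XI replicate 1, against 10, and those called lower 9 to 15, 9 without YΔG/XK/XI replicate 1, against 15 and 24 under quantile normalization. The change of *RRN10* was -0.42 with normexp correction, against -0.73, and that of *TFC8* was 0.18 after quantile normalization. Median scaling subtracts 1 value per array, so it moved the changes of all genes by the same amount. The median over all genes went from 0.01 to -0.05 with it. The cause of the other shifts was not tested.

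Deviations of same-numbered arrays from their strain means correlated at 0.0656, 0.301 and 0.415, so the numbers were not taken as pairs. With the replicate number as a block, 2362 genes were called, and 17 subunit genes were called higher, among them all 13. The other 4 were *RPA135* (adjusted p = 0.047), *RPC19* (adjusted p = 0.0413), *RPC10* (adjusted p = 0.00338) and *RPC25* (adjusted p = 0.0309).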

Other observations

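The list of regulators of polymerase and ribosome synthesis holds genes that act on ribosome-building genes or on Pol III. They encode transcription factors and cofactors, the kinase Sch9 and the Pol III repressor Maf1. Of the 10 genes on this list, 1 fell (10%, against 13.1% of all genes) and limma called 0 higher. At an unadjusted p under 0.05, limma gave 1 higher and 4 lower, where 1420 of the 6256 genes were higher and 1216 lower. *CRF1*, a corepressor of ribosomal protein genes, fell by 0.44 (SE 0.08, adjusted p = 0.00405). The following genes were picked after their values were seen. The YΔGP/XK/XI arrays lay below all YΔG/XK/XI arrays for 4 of the 10, where 21.5% of all genes did so. Besides *CRF1*, these were the activator gene *SFP1* (-0.25, adjusted p = 0.0577) and the repressor genes *STB3* (-0.24, adjusted p = 0.0612) and *DOT6* (-0.24, adjusted p = 0.0791). All YΔGP/XK/XI arrays lay above for 2 of the 10, where 25.0% of all genes did so. These were *MAF1*, the repressor of Pol III (0.18, adjusted p = 0.11), and the kinase gene *SCH9* (0.12, adjusted p = 0.245). The signals of messenger RNAs say nothing of the activity of these proteins, several of which are set by phosphorylation.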
